A study of Mus musculus with 7 samples.

Results

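Src-family kinases and the proteins that couple them to nephrin were followed at the RNA level in isolated mouse glomeruli. The 10 genes were taken by symbol from the deposited tables and all were present among 12958 gene symbols: the kinases Fyn, Yes1, Src and Lyn, their regulators Csk, Pag1, Ptpn11 and Cblb, and the nephrin adaptors Nck1 and Nck2. RNA came from 7 male BALB-C mice aged 14 weeks, with 1 library per animal. Knockdown animals (n = 3) carried a transgenic siRNA sequence against Shroom3, an actin-binding protein of cell junctions, and the controls (n = 4) were littermates that lacked the siRNA sequence. Doxycycline was given to both groups with food and water, starting at 8 weeks of age and lasting 6 weeks. What promoter drives the transgene is not given in the sources used here, nor whether knockdown was limited to 1 cell type. The title of the series links Shroom3 and Fyn to nephrin phosphorylation, so the comparison asks whether the transcripts of this kinase module differ in knockdown glomeruli.

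Nephrin is the transmembrane protein that spans the slit diaphragm between the foot processes of podocytes, the epithelial cells of the glomerular filter. Src-family kinases, Fyn above all, phosphorylate tyrosines in its cytoplasmic tail, and the adaptors Nck1 and Nck2 bind these phosphotyrosines through their SH2 domains and recruit proteins that build actin filaments. Src-family kinases are themselves held inactive when Csk phosphorylates a tyrosine near their carboxyl terminus. Pag1 is a membrane protein that anchors Csk, Ptpn11 (SHP2) is a tyrosine phosphatase, and Cblb is a ubiquitin ligase that marks active kinases for removal. The series title names an interaction of Shroom3 with Fyn. The values below concern transcripts only.

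The deposited values state no log base and were read as log2, with library medians near 9.16 in knockdown and from 9.15 to 9.16 in control libraries. Sequencing depth and counting error are unknown because no counts were used. Shroom3 itself was at 10.80, 10.91 and 10.89 in knockdown libraries and at 10.94, 10.85, 11.36 and 11.06 in control libraries, so that the targeted transcript does not check the labels (log2 fold change -0.19; Benjamini-Hochberg adjusted p = 0.417, limma). Podocyte markers were abundant in every library (12 of 12 measured, list means 13.20 to 13.38 in knockdown and 13.16 to 13.69 in control libraries). Proximal tubule markers were abundant too (10 of 10 measured, list means 12.61 to 12.94 in knockdown and 13.19 to 13.55 in control libraries), so the preparations also held tubule RNA. Titles came in 2 styles, starting with G (2 knockdown, 3 control) or with CB6 (1 knockdown, 1 control), whose meaning the labels do not give.

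Of this module 1 gene passed the test, and 0 passed with title style as a covariate. Cblb was lower in knockdown glomeruli and passed in the main fit. Fyn, Ptpn11, Nck2 and Pag1 had log2 fold changes between -0.30 and -0.49 that did not pass the threshold. Src, Lyn, Csk and Nck1 had intervals on both sides of 0, and Yes1 had a log2 fold change of 0.15 that did not pass either. Of the 10 genes, 1 passed the threshold of 0.05 on the p-value adjusted over all genes (Benjamini-Hochberg, limma), against 3.02% of all genes tested, or 2.02% in the downward direction. At an unadjusted p under 0.05, 5 were lower and 1 higher. Over all genes 18.4% had such a p, 8.67% lower and 9.77% higher. Groups that did not overlap were seen for 3 of the 10 genes, all lower in knockdown, against 7.55% of all genes in that direction and 18.4% in either. The 10 genes had a median log2 fold change of -0.22, beside 0.02 over all genes tested. These counts describe the genes and do not test them as a group. In bulk RNA fewer cells of a type and less RNA per cell cannot be told apart.

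**Figure D1:**
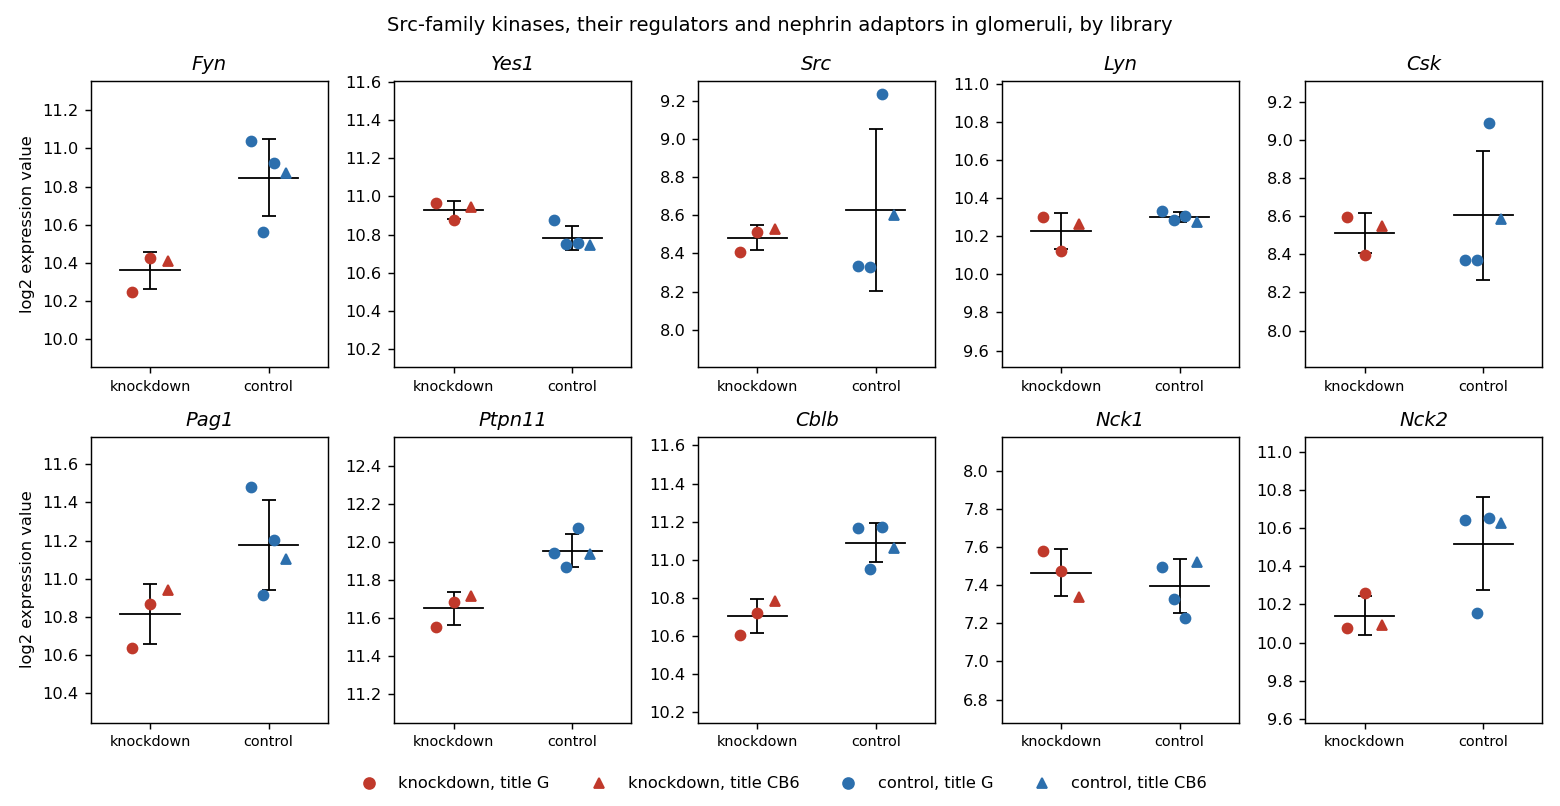
Log2 expression value of each of the 10 genes (vertical axis, each panel spanning the same width of 1.5 log2 units) in the 3 knockdown (red, left) and 4 control (blue, right) libraries; circles are libraries titled G, triangles those titled CB6, and bars give the mean and SD. Knockdown points lie below every control point for Fyn, Ptpn11 and Cblb, while the same control library is the highest for both Src and Csk.

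Among the kinases, Fyn was the member with the largest difference. Fyn (ENSMUSG00000019843.14; GRCm38 chromosome 10, 39368855 to 39565381, plus strand) had log2 values of 10.25, 10.42 and 10.41 in knockdown libraries, against 11.04, 10.56, 10.92 and 10.87 in control libraries. Each knockdown library was below the lowest control library, by a gap of 0.14, and that lowest control was replicate 2. The mean was 10.36 ± 0.10 (SD, n = 3) in knockdown glomeruli, against 10.85 ± 0.20 (SD, n = 4) in control glomeruli. The log2 fold change was -0.49 (SE 0.11, 95% interval -0.74 to -0.24), which corresponds to a change of -28.7% on the linear scale, and it missed the threshold over all genes (Benjamini-Hochberg adjusted p = 0.0533, limma). Over 14 alternative settings Fyn passed in 3, with adjusted p (limma) from 0.00861 to 0.344. The lowest came without control replicate 2. Among these settings, the one without a filter on low values repeats the main fit, because that filter removed 0 genes. The difference was -0.51 in the libraries titled G and -0.46 in the CB6 pair.

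Yes1, a ubiquitously expressed relative of Src that is close to Fyn in sequence, had a difference of the opposite sign. Yes1 (ENSMUSG00000014932.15; chromosome 5, 32611171 to 32687057, plus strand) was at 10.96, 10.88 and 10.94 in knockdown libraries and at 10.88, 10.75, 10.76 and 10.74 in control libraries. The groups met at a single point, where knockdown replicate 2 and control replicate 1 had nearly the same value. The log2 fold change was 0.15 (SE 0.06, 95% interval 0.02 to 0.27; Benjamini-Hochberg adjusted p = 0.213, limma), and it lay between 0.13 and 0.18 with any 1 library left out. The difference was 0.12 in the libraries titled G and 0.20 in the CB6 pair.

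Lyn, a kinase best known from B cells and myeloid cells, varied little. Lyn (chromosome 4, 3678115 to 3813122, plus strand) had 10.30, 10.12 and 10.26 in knockdown libraries, against 10.33, 10.29, 10.30 and 10.27 in control libraries. The 4 controls agreed within an SD of 0.03, and the knockdown libraries reached into their range. Its log2 fold change of -0.07 had a 95% interval from -0.21 to 0.07 (Benjamini-Hochberg adjusted p = 0.593, limma). Of 11 leukocyte markers, among them markers of B cells and myeloid cells, 6 were measured. Their summed level ran from 10.90 to 11.02 in knockdown and from 10.90 to 11.26 in control libraries on the log2 scale, and 0 of them passed.

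Src, the founding member of the family, had 1 high control library. Src (chromosome 2, 157418444 to 157471862, plus strand) was at 8.41, 8.51 and 8.53 in knockdown libraries and at 8.34, 8.33, 9.24 and 8.60 in control libraries. Control replicate 3 was the high one, and the knockdown values lay inside the range of the other controls. The log2 fold change was -0.14 (SE 0.21; Benjamini-Hochberg adjusted p = 0.767, limma) and 0.059 without that control.

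Transcript levels of different genes can be compared only per length. The deposited values rose with gene length across genes (Spearman correlation 0.304 between mean value and exon-union length over 12701 genes), so the log2 of the exon-union length in kilobases was subtracted for this purpose alone. How the authors treated length is not given in the sources used here. On that log2 per-kilobase scale the kinases in knockdown glomeruli stood at 8.23 ± 0.10 for Fyn, 8.20 ± 0.09 for Lyn, 8.02 ± 0.05 for Yes1 and 6.35 ± 0.07 for Src (SD, n = 3). In control glomeruli they stood at 8.72 ± 0.20 for Fyn, 8.27 ± 0.03 for Lyn, 7.87 ± 0.06 for Yes1 and 6.50 ± 0.43 for Src (SD, n = 4). In controls Fyn ranked first of these 4 without overlap, from 8.44 to 8.91 against 8.25 to 8.31 for Lyn. In knockdown libraries the ranges of Fyn (8.12 to 8.30) and Lyn (8.10 to 8.27) overlapped. The rank in controls rests on the length subtraction. As deposited, the control ranges of Fyn (10.56 to 11.04) and Yes1 (10.74 to 10.88) overlapped.

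Frk, an epithelial kinase related to Src, had a per-kilobase level of 8.42 ± 0.10 (SD, n = 3) in knockdown glomeruli, against 8.38 ± 0.08 (SD, n = 4) in control glomeruli.

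Whether the change of Fyn differed from that of its relatives was tested within libraries, on the difference of the 2 log2 values, by two-sided exact permutation over the 35 possible assignments of libraries to groups. The smallest p this test can give is 0.0571, so none of the 4 pairs compared could reach 0.05. Fyn minus Yes1 was -0.72, -0.45 and -0.54 in knockdown libraries, against 0.16, -0.19, 0.16 and 0.13 in control libraries. These groups did not overlap, and the means differed by -0.63, at that smallest p (exact permutation p = 0.0571; 0.114 adjusted over the 4 pairs). Fyn and Yes1 had the lowest and the highest log2 fold change of the 10 genes, and Fyn alone already separated the groups. The pairs were chosen with earlier results of these data known. The share of all gene pairs without overlap was not computed, so this separation is a description. Fyn minus Lyn averaged 0.13 ± 0.18 (SD, n = 3) in knockdown libraries, against 0.55 ± 0.19 (SD, n = 4) in control libraries (difference -0.42; exact permutation p = 0.114, adjusted 0.152). Fyn minus Src averaged 1.88 ± 0.03 (SD, n = 3) in knockdown libraries, against 2.22 ± 0.42 (SD, n = 4) in control libraries (difference -0.34; exact permutation p = 0.229, adjusted 0.229).

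**Figure D2:**
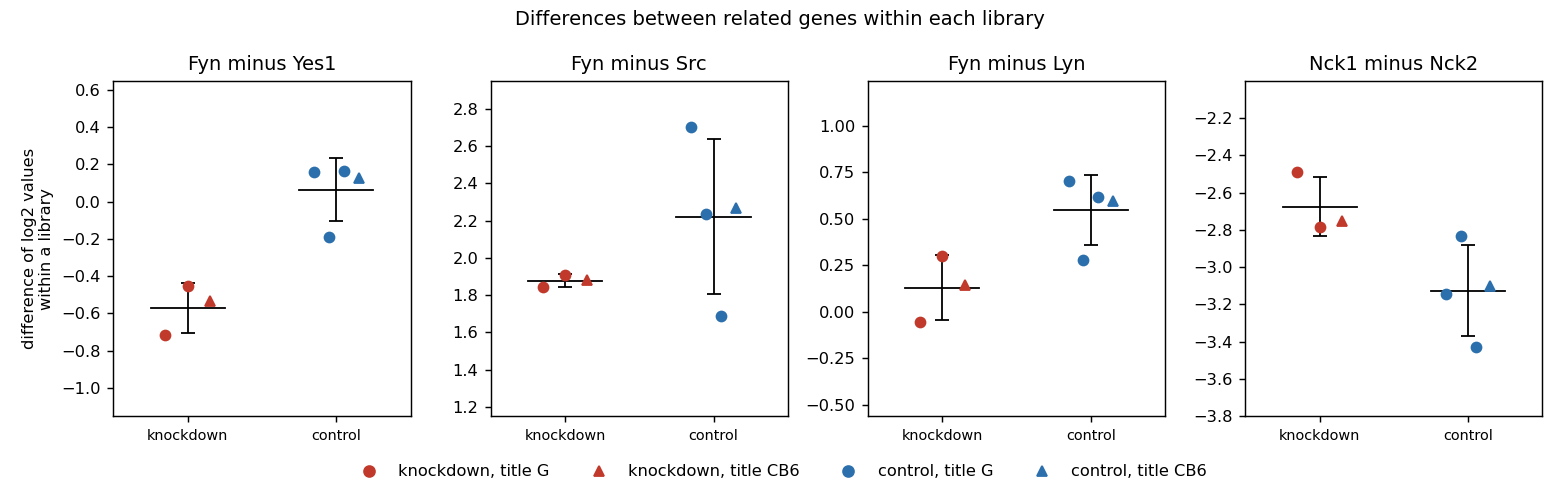
Difference of log2 values between 2 related genes within each library (vertical axis, log2 units), for knockdown (red, left) and control (blue, right) libraries, with circles for libraries titled G, triangles for CB6, and bars for the mean and SD. Fyn minus Yes1 lies between -0.72 and -0.45 in knockdown libraries and between -0.19 and 0.16 in control libraries.

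Among the regulators, Cblb was the only gene past the threshold in the main fit. Cblb (ENSMUSG00000022637.11; chromosome 16, 52031225 to 52208048, plus strand) had log2 values of 10.61, 10.72 and 10.78 in knockdown libraries, against 11.17, 10.95, 11.17 and 11.06 in control libraries. The groups stood 0.17 apart at their nearest points, control replicate 2 again being the lowest control. Cblb averaged 10.70 ± 0.09 (SD, n = 3) in knockdown glomeruli, against 11.09 ± 0.10 (SD, n = 4) in control glomeruli, and fell by 23.4% on the linear scale (log2 fold change -0.39, SE 0.07, 95% interval -0.55 to -0.22; Benjamini-Hochberg adjusted p = 0.0306, limma). The call held in 5 of 14 alternative settings (including no filter, which repeats the main fit), with adjusted p (limma) from 0.0167 to 0.212. It was lost without the intensity trend (limma adjusted p = 0.0575), with title style as a covariate (limma adjusted p = 0.0741) and on leaving out any library other than control replicate 2, at log2 fold changes from -0.43 to -0.34. The difference of Cblb was -0.43 in the libraries titled G (limma adjusted p = 0.212) and -0.28 in the CB6 pair. If the values were adjusted for title style before deposit, the p-value of the main fit is too small.

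Ptpn11, the phosphatase SHP2, showed the same separation. Ptpn11 (ENSMUSG00000043733.14; chromosome 5, 121130533 to 121191397, minus strand) was at 11.55, 11.69 and 11.72 in knockdown libraries and at 11.94, 11.87, 12.07 and 11.93 in control libraries. No knockdown library reached the lowest control, and the SD was 0.09 in both groups. With title style as a covariate the limma adjusted p of Ptpn11 was 0.117. In the main fit Ptpn11 had a log2 fold change of -0.30 (SE 0.07, 95% interval -0.45 to -0.15), a change of -18.9%, which missed the threshold (Benjamini-Hochberg adjusted p = 0.0515, limma). It passed in 4 of 14 alternative settings, with adjusted p (limma) from 0.0399 to 0.291, and the difference was -0.34 in the libraries titled G and -0.22 in the CB6 pair.

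Neither Pag1, the anchor of Csk, nor Csk itself passed. Pag1 (chromosome 3, 9687479 to 9833679, minus strand) had 10.64, 10.87 and 10.94 in knockdown libraries, against 11.48, 10.91, 11.20 and 11.10 in control libraries. Its groups overlapped narrowly, since knockdown replicate 3 lay just above control replicate 2, and the log2 fold change of -0.36 (SE 0.13) did not pass (Benjamini-Hochberg adjusted p = 0.187, limma). The difference of Pag1 was -0.45 in the libraries titled G and -0.16 in the CB6 pair. Csk (chromosome 9, 57626646 to 57653631, minus strand) was at 8.60, 8.40 and 8.55 in knockdown libraries and at 8.37, 8.37, 9.09 and 8.59 in control libraries. Control replicate 3, the library with the highest Src, also had the highest Csk. The log2 fold change of Csk was -0.09 (SE 0.17; Benjamini-Hochberg adjusted p = 0.832, limma) and 0.071 without that control. Over the 7 libraries Src and Csk had a Pearson r of 0.945, a description over points of which 1 library is the highest for both.

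Of the adaptors, Nck2 had the larger difference and neither passed. Nck2 (ENSMUSG00000066877.11; chromosome 1, 43444579 to 43570515, plus strand) had 10.07, 10.26 and 10.09 in knockdown libraries, against 10.64, 10.16, 10.66 and 10.63 in control libraries. Control replicate 2 lay among the knockdown libraries, far below the other controls. Nck2 had a log2 fold change of -0.38 (SE 0.13, 95% interval -0.66 to -0.09), a change of -23.0% that did not pass (Benjamini-Hochberg adjusted p = 0.157, limma). Without control replicate 2 it was -0.50 and passed (limma adjusted p = 0.0107), so that 1 library decides this call. It was -0.32 in the libraries titled G and -0.53 in the CB6 pair.

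Nck1 (chromosome 9, 100492293 to 100546134, minus strand) was at 7.58, 7.48 and 7.34 in knockdown libraries and at 7.50, 7.32, 7.23 and 7.52 in control libraries, with overlapping groups. Nck1 had a log2 fold change of 0.07 (SE 0.12, 95% interval -0.19 to 0.34; Benjamini-Hochberg adjusted p = 0.796, limma), 0.18 within the libraries titled G and -0.18 within the CB6 pair. Per kilobase, Nck2 stood at 7.99 ± 0.10 and Nck1 at 5.21 ± 0.12 in knockdown glomeruli (SD, n = 3). In control glomeruli Nck2 stood at 8.36 ± 0.24 and Nck1 at 5.13 ± 0.14 (SD, n = 4), so that Nck2 was the far more abundant adaptor transcript in both groups. Nck1 minus Nck2 was -2.49, -2.78 and -2.75 in knockdown libraries, against -3.14, -2.83, -3.43 and -3.10 in control libraries. The groups did not overlap, and the means differed by 0.45 at the smallest p the test can give (exact permutation p = 0.0571; 0.114 adjusted over the 4 pairs). This too is a description, since the share of all gene pairs without overlap was not computed.

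**Figure D3:**
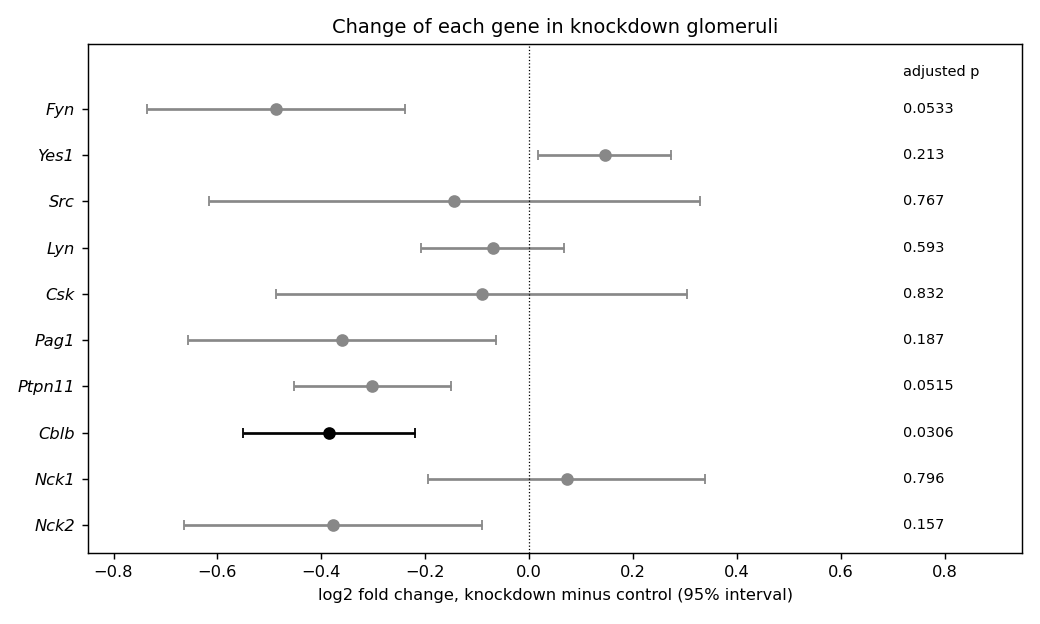
Log2 fold change of knockdown minus control (horizontal axis, points) with 95% intervals from limma over 12958 genes, and the Benjamini-Hochberg adjusted p at the right; black marks an adjusted p below 0.05 and grey the others. Cblb alone is black, and Fyn, Ptpn11, Pag1 and Nck2 have intervals below 0 with adjusted p from 0.0515 to 0.187.

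Among the 5 genes with negative intervals, Pearson r over the 7 libraries ran from 0.814 (Pag1 and Ptpn11) to 0.974 (Ptpn11 and Cblb) for the 10 pairs. For Fyn it was 0.974 with Cblb, 0.948 with Nck2, 0.942 with Pag1 and 0.919 with Ptpn11. These are descriptions: the genes were grouped by their difference between the 2 groups, which enters r. Control replicate 2 was the lowest control for all 5. The same library had the lowest mean of the control libraries for podocyte markers (13.16), glomerular endothelial markers (13.17) and mesangial markers (10.11), and one of the highest for proximal tubule markers (13.52). For 9 of the 10 genes the difference had the same sign in the libraries titled G and in the CB6 pair, Nck1 being the exception. The CB6 difference is 1 library against 1, and for Lyn it was only -0.0087. The share of all genes with like signs was not computed, so this count is a description.

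Cell type marker lists are set beside these differences. Of 12 podocyte markers, the log2 fold change was below 0 for 10, with a median of -0.13, and 0 passed. Their summed level ran from 18.06 to 18.30 in knockdown and from 17.88 to 18.36 in control libraries on the log2 scale. The highest value of every library belonged to 1 of these markers, which weighs heavily in that sum. All 8 endothelial markers had negative log2 fold changes (median -0.23) and 0 passed, with summed levels of 16.42 to 16.75 in knockdown and 16.55 to 17.08 in control libraries. Of 7 mesangial markers 5 were negative (median -0.10) and 2 fell, with summed levels of 13.67 to 13.95 in knockdown and 13.83 to 14.34 in control libraries. Of 10 proximal tubule markers 4 fell and 1 rose (median -0.39), with summed levels of 17.36 to 17.70 in knockdown and 17.23 to 17.56 in control libraries. For this list the summed level was on the higher side in knockdown libraries, with overlap, while the mean of the log2 values was lower in every knockdown library than in any control. Log2 fold changes in this list ran from -3.26 to 1.49, so single markers weigh heavily in that mean. Over all genes 43.8% had negative log2 fold changes. None of the measured markers was at the table minimum of 2.32. The part of these markers in the differences of Fyn, Cblb, Ptpn11, Pag1 and Nck2 was not tested.

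**Figure D4:**
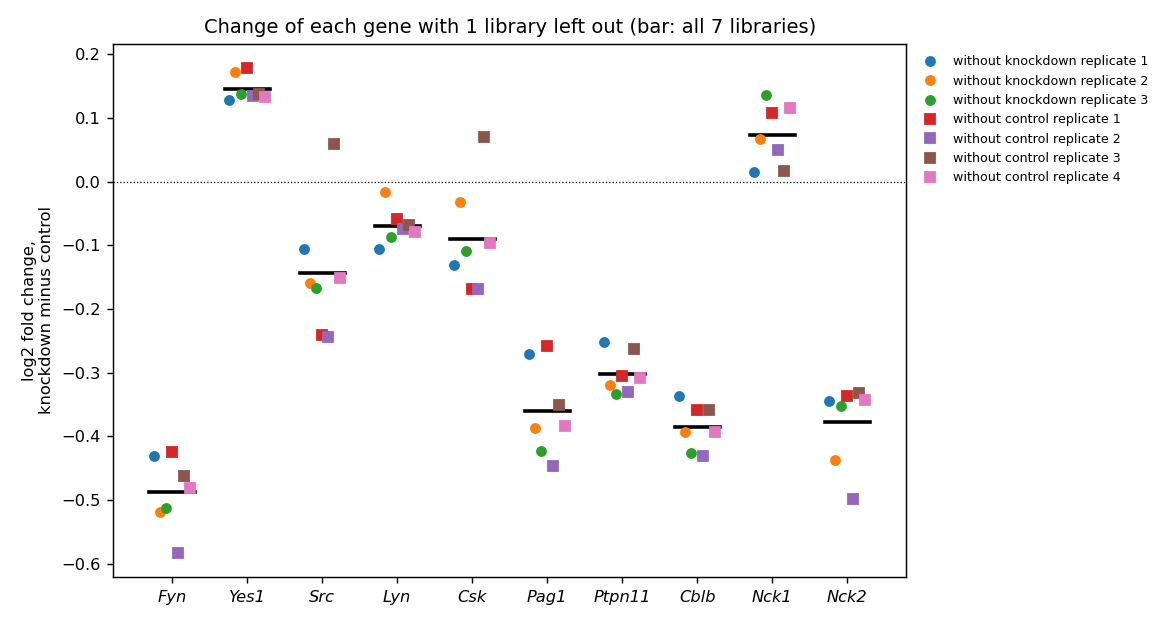
Log2 fold change of each gene, knockdown minus control (vertical axis), with all 7 libraries (black bar) and with each library left out in turn (circles for a knockdown library left out, squares for a control). Src and Csk cross 0 without control replicate 3, and Fyn stays between -0.58 and -0.42.

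Start regions are shown for Fyn, Ptpn11 and Nck2, of the genes with intervals below 0, because most of their RefSeq window lay outside annotated untranslated sequence. Of the other genes with such intervals, Pag1 had no RefSeq window, and that of Cblb met untranslated sequence too early to be shown. RefSeq windows were matched by symbol for 8 of the 10 genes, on GRCm38.p6. Each sequence below runs 5′ to 3′ on the strand of the gene and ends where the annotated untranslated exon that follows begins, for Fyn at chr10:39369549-39369763 (plus strand, 215 bases), for Ptpn11 at chr5:121191398-121191647 (minus strand, 250 bases) and for Nck2 at chr1:43445501-43445750 (plus strand, 250 bases). None of the 3 windows overlaps an exon annotated for its gene, and those of Fyn and Nck2 lie within the annotated bounds of the gene. Capitals mark matches, on either strand, to the GC box (GGGCGG), the CCAAT box (CCAAT), the TATA box (TATAAA) and the cyclic AMP response element (TGACGTCA).
Fyn: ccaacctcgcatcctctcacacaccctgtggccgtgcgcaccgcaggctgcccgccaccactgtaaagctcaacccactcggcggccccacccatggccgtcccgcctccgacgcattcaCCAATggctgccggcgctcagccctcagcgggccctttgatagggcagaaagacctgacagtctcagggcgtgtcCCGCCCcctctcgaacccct
Ptpn11: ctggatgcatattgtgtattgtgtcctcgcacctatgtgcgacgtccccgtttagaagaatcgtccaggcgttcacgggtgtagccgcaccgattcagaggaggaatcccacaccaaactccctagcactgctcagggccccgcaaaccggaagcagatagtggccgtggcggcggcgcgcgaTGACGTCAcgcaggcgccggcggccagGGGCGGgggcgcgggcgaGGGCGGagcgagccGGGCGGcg
Nck2: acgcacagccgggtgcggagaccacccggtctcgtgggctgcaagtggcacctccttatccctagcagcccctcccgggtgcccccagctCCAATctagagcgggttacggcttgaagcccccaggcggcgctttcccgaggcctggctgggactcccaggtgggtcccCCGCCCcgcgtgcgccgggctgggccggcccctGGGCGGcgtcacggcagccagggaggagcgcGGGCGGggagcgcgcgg
Fyn held 1 GC box and 1 CCAAT box, where 27.7% and 30.4% of 32851 RefSeq windows of that length held these motifs. Ptpn11 held 3 GC boxes and 1 cyclic AMP response element, an element present in 1.55% of windows of its length. Nck2 held 3 GC boxes and 1 CCAAT box, present in 32.7% and 33.8% of windows of its length. The TATA letters were in none of these 3 windows, against 9.75% of windows of 215 bases and 12.4% of windows of 250 bases. A match describes letters only, and these motifs were chosen with the sequences in view.

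Nephrin and its partners in the slit diaphragm were followed as the substrate side of the pathway. Nphs1, the gene of nephrin, had 12.36, 12.51 and 12.53 in knockdown libraries, against 12.66, 12.31, 12.81 and 12.54 in control libraries, with a log2 fold change of -0.11 (Benjamini-Hochberg adjusted p = 0.645, limma). Of 12 slit diaphragm genes 1 fell and none rose, with a median log2 fold change of -0.10. The gene that fell was Magi2 (chromosome 5, 19227036 to 20704792), a scaffold protein that binds nephrin, at 11.01, 11.04 and 10.97 in knockdown libraries against 11.84, 11.43, 11.71 and 11.85 in control libraries. Its log2 fold change was -0.70 (SE 0.10; Benjamini-Hochberg adjusted p = 0.00872, limma). Magi2 passed in 13 of 14 alternative settings, the exception being the libraries titled G alone (limma adjusted p = 0.152). The settings passed include no filter, which repeats the main fit.

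None of the 10 other Src-family and related kinases passed, and their median log2 fold change was 0.04. Those with the highest deposited values, taken without regard to length, were Frk, with a log2 fold change of 0.04, and Abl1, a tyrosine kinase that acts on actin, with 0.15. None of the 14 other regulators of Src-family kinases passed either (median 0.07), with estimates of opposite sign for the 2 receptor phosphatases of highest deposited value. Ptpro, the phosphatase of podocyte foot processes, was at 12.88, 13.07 and 13.07 in knockdown libraries and at 13.74, 13.21, 13.47 and 13.48 in control libraries (log2 fold change -0.47; Benjamini-Hochberg adjusted p = 0.0696, limma). Ptprj, a receptor phosphatase that can remove the inhibitory phosphate from Src-family kinases, was at 12.72, 12.80 and 12.78 in knockdown libraries and at 12.59, 12.61, 12.67 and 12.58 in control libraries (log2 fold change 0.15; Benjamini-Hochberg adjusted p = 0.151, limma). Both genes separated the groups without overlap, as 18.4% of all genes tested did in either direction.

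The other adaptors and enzymes that bind phosphotyrosine had no call among 17 genes. Their median log2 fold change was 0.08, and the genes of highest deposited value, the phosphoinositide 3-kinase subunits Pik3r1 and Pik3ca, differed by -0.07 and -0.03. Among 20 effectors of Nck and of actin nucleation none passed (median -0.04, 15 negative), and those of highest deposited value, the GTPase gene Rhoa and its regulator Arhgap35, differed by -0.01 and 0.10, the value of Rhoa turning to 0.016 under quantile normalization. The effector with the smallest adjusted p, chosen after its values were seen, was Pak1, a kinase that binds Nck and acts downstream of Rac and Cdc42. Pak1 was at 10.35, 10.37 and 10.26 in knockdown libraries, against 10.85, 10.64, 10.51 and 10.82 in control libraries (log2 fold change -0.37; Benjamini-Hochberg adjusted p = 0.0630, limma), and it passed in 2 of 14 alternative settings. None of the 6 genes of the Shroom and Rock families passed (median -0.0068), Rock1 and Rock2 differing by 0.11 and -0.02.

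**Figure D5:**
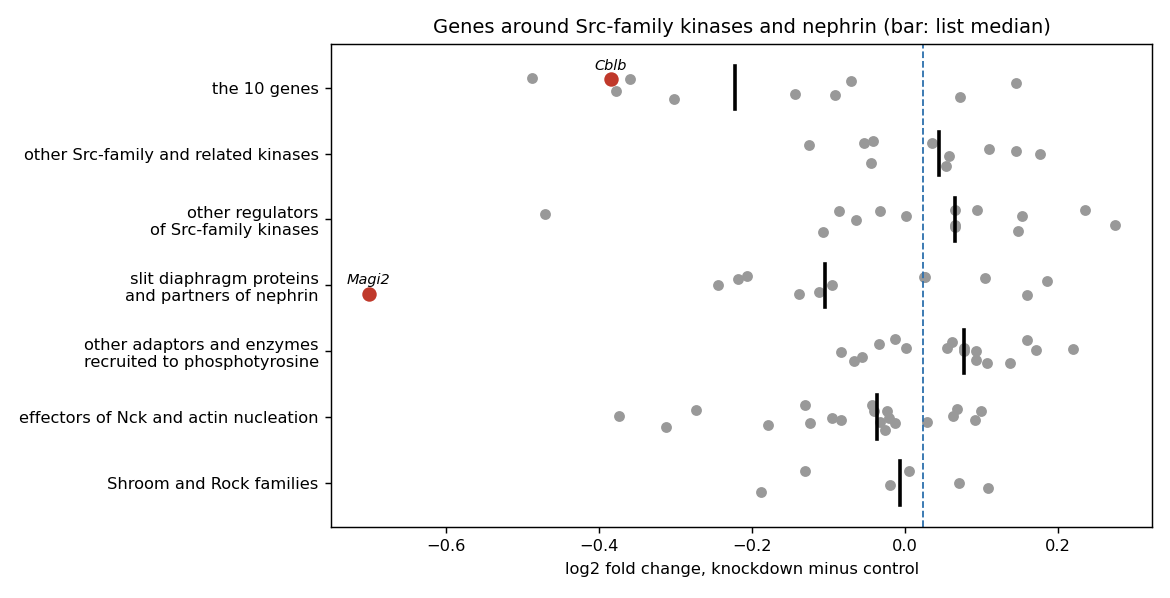
Log2 fold change, knockdown minus control (horizontal axis), of the 10 genes and of 6 further lists around them; each point is a gene, red marks an adjusted p below 0.05, the black bar is the list median and the dashed line the median of all genes (0.02). Cblb and Magi2 are the red points.

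The genes whose values were most like those of Fyn over the 7 libraries were F2r, a thrombin receptor (Pearson r 0.998), Parp4 (0.996), Ntn4, a netrin of basement membranes (0.996), Plpp1, a lipid phosphatase (0.995), and Ppia, a prolyl isomerase (0.994). Of these Parp4 fell, with a log2 fold change of -0.37 (Benjamini-Hochberg adjusted p = 0.0425, limma), a call that held in 5 of 14 alternative settings. The settings passed include no filter, which repeats the main fit. Ppia differed by -0.07 and has many processed copies in the genome. How reads that match such copies were counted is not given in the sources used here. These are the highest r of 12958 genes over 7 libraries that share the 2 groups, and are given as a description.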

How the data were processed

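Glomerular RNA of 7 mice (3 knockdown, 4 control) was sequenced after depletion of ribosomal RNA and poly-A selection, per the labels. BWA and the build mm10 are named for the reads, per the submitters' processing notes. Each library has 1 table of gene symbols and values as deposited by the authors, read here as log2. The antilogarithms sum to nearly equal totals, but the means of the values are nearly equal too, so this does not fix the base. All fold changes and percent changes rest on the reading as log2. None of base, counting, strand use and normalization is given in the sources used here, and depth is unknown, so no counting error is given. The limma p-values set the group difference against the spread between these libraries, estimated partly from other genes of like level. The permutation p-values rank the difference among the possible assignments of libraries to groups. For each member, the mean over the libraries titled G nearly equalled the mean over the CB6 pair. An adjustment for title style before deposit would leave this, though the sources used here name none. After such an adjustment the p-values of fits without that covariate, that of Cblb among them, are too small.

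The groups were compared with limma 3.58.1 (R 4.3.3), using an intensity trend and Benjamini-Hochberg adjustment over 12958 genes (threshold 0.05). Genes had to exceed the table minimum of 2.32 in at least 3 libraries, which removed 0, so all 10 members passed. In the libraries titled G, 108 genes shared a profile within 0.003, as a filled-in value would leave, none of them a member. Among the listed genes Pdgfra, a mesangial marker, was the only gene with that profile.

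Symbols were matched to GENCODE release M21 (GRCm38, the build of mm10), which held 12701. Exact permutation tests of 4 within-library differences used scipy 1.17.1. The limma fit and the permutation test were tested on simulated data. Alternatives were leaving out each library, the libraries titled G alone, title style as a covariate, no trend, no filter, genes above the lowest 25% by mean, median scaling and quantile normalization.

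The members, lists, tests and alternatives were chosen with earlier results of these data known. Named are the members, Shroom3, Nphs1, of each further list up to 4 genes past the threshold or else the 2 with the highest mean, and the 5 genes most like Fyn. Pak1 is named outside this rule, after its values were seen.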

Additional observations from a re-analysis of the deposited data

Results flagged for a closer look

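In the 4 control libraries, 4 of 28 named genes had a library that lay far from the others by the share of the range that its gap took, which chance gives in about 1 of 20 groups. Yes1 was highest in control replicate 1, at 10.88 against 10.76 for the next. Nck2 was lowest in control replicate 2, at 10.16 against 10.63. Abl1 was highest in control replicate 3, at 11.42 against 11.02. Pik3ca was lowest in control replicate 4, at 12.19 against 12.24. Groups of 3 were not tested.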

How the results depend on the processing

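Of 391 values of the 28 genes named by rule (without Pak1) under 14 alternatives, 346 kept their direction and their side of the threshold, 19 lost a call, 17 gained one and 9 changed sign. The setting without a filter repeats the main fit, so its values among the 346 could not change. The count of all genes past the threshold, 391, was 191 with title style as a covariate, 40 in the libraries titled G alone, and 134 to 480 with a library left out. The count of members past it, 1, was 3 with quantile normalization and 3 among genes above the lowest 25% by mean (Fyn, Ptpn11 and Cblb in both), 2 with median scaling (Ptpn11 and Cblb), and 0 without the intensity trend, 0 with title style and 0 in the libraries titled G alone. It was 0 to 4 with a library left out, and 0 in 6 of these 7. The 4 without control replicate 2 were Fyn, Ptpn11, Cblb and Nck2. The filter above the lowest 25% left no value for Nck1. With title style as a covariate no member moved by more than 0.0041, and the call of Cblb was lost with a larger p-value at a like difference. The means of the 2 title styles nearly coincide for each member, so this covariate could move the differences only slightly. Their stability under it therefore tells nothing about an effect of title style. Src ran from -0.24 to 0.059 and Csk from -0.17 to 0.071 with a library left out, both positive only without control replicate 3. Frk ran from -0.0079 to 0.090, Rock2 from -0.047 to 0.018 and Rhoa from -0.032 to 0.011, while Rhoa was 0.016 with quantile normalization and 0.027 in the libraries titled G alone. The cause of these changes was not tested. With a library left out, Fyn minus Yes1 ran from -0.72 to -0.56, Fyn minus Lyn from -0.51 to -0.33, Fyn minus Src from -0.52 to -0.18 and Nck1 minus Nck2 from 0.35 to 0.55. No paired analysis was possible because the labels number no replicates, and the replicate numbers used here follow the order of the samples and only name the libraries.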
